A study of Homo sapiens with 4 samples.

Results

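Amino acid transporters of the cell surface were followed in RNA-seq of a human leukemia line in which LDB1 was knocked down. The 10 genes were SLC3A2, SLC7A5, SLC7A8, SLC7A6, SLC43A1, SLC7A1, SLC1A4, SLC1A5, SLC38A1 and SLC38A2, taken by gene name from the 28412 genes of the deposited table, and all 10 had a value. There were 4 libraries, 2 of cells with the control vector sh-NC (control libraries) and 2 of cells with an shRNA vector against LDB1, sh-LDB1 (knockdown libraries). All cells carried a lentiviral pLKO.1 vector under puromycin selection, and the study describes 3 shRNAs against LDB1, of which the labels do not name the one sequenced. The labels give the line as NB4, a promyelocytic leukemia line, and do not say whether the replicates were separate cultures, so the p-values below measure the spread between these libraries, which may be technical. Values are FPKM, fragments counted per kilobase and adjusted for sequencing depth, a level per length that can be compared between genes.

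Cells cannot make essential amino acids and take them up through membrane carriers. SLC3A2, also called CD98 or 4F2hc, is a heavy chain with no transport activity of its own, which brings light chains such as SLC7A5, SLC7A8 and SLC7A6 to the cell surface. Other carriers work without a heavy chain and differ in the amino acids they move and in their use of sodium. LDB1 is the adaptor that joins LMO2, TAL1 and GATA1 into a transcription complex in blood cells.

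The knockdown itself was measured first. LDB1 was at 135.1 and 120.1 FPKM in the control libraries and at 10.2 and 9.47 FPKM in the knockdown libraries. The level left was 7.73% of the control, with a log2 fold change of -3.56 ± 0.0765 (SE) and an adjusted p = 6.93e-05. Fold changes and p-values come from limma on log2(FPKM + 1), with 2 libraries a group and Benjamini-Hochberg adjustment over 13300 genes. A gene was called changed at an adjusted p under 0.05 together with a fold of FPKM + 1 above 2 or below 0.5.

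Granule markers of the granulocytic lineage were low or without a value in the control RNA. The study states that its lines were authenticated by STR profiling, and the identity of the cells in these libraries was not tested here. Of 16 granulocytic markers, 12 had a value, and ELANE, MS4A3, LTF, CAMP and PRG2 were under 1 FPKM in all 4 libraries. The summed level of the 12 was 22.7 to 24.0 FPKM in the control libraries and 73.4 to 76.0 FPKM in the knockdown libraries. Of the 7 tested, 4 were called higher, namely SPI1, LYZ, CSF3R and PRTN3. AZU1 and CD33 rose without a call. CEBPE went the other way, from 1.55 and 1.27 FPKM in the control libraries to 0.924 and 0.340 FPKM in the knockdown libraries. Its adjusted p from limma was 0.081. Among the markers under 1 FPKM, MS4A3, LTF and PRG2 had lower means in the knockdown libraries, and ELANE and CAMP had higher means. SPI1 and LYZ had the highest levels of the list. SPI1 went from 10.5 and 10.7 FPKM in the control libraries to 34.3 and 35.3 FPKM in the knockdown libraries, and LYZ from 5.85 and 5.61 to 19.3 and 19.1 FPKM. All 18 erythroid markers had a value, with a summed level of 4347 to 4538 FPKM in the control libraries and 420.6 to 456.2 FPKM in the knockdown libraries, and all 16 tested were called lower. HBZ, an embryonic globin, was at 1543 and 1600 FPKM in the control libraries, against 58.9 and 61.3 FPKM in the knockdown libraries. This marker shift lay between the same groups of libraries as every comparison below, and its part in the transporter changes was not tested. In such bulk RNA, fewer cells of a type and less RNA per cell cannot be told apart.

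Results showed that 4 of the 10 transporters fell more than 2-fold after LDB1 knockdown and that none rose past the threshold. SLC7A8 and SLC7A5, the light chains that carry large neutral amino acids, fell furthest, followed by SLC7A1, a carrier of arginine and lysine, and SLC43A1, a carrier of branched-chain amino acids. Among all tested genes, 10.3% were called lower, 9.5% higher and 19.8% in either direction. At an adjusted p under 0.05 with no fold threshold, 6 members were lower and 2 were higher, where the background was 37.4% lower, 29.9% higher and 67.4% in either direction. The 2 groups did not overlap for any of the 10 members, as was so for 84.6% of all tested genes. The median log2 fold change of the members was -0.34, against -0.08 for all tested genes. When each library was rescaled to the same total FPKM, the median of all genes moved to 0.07 and the share of lower among all calls went from 52.0% to 38.6%, while the same count of 4 lower and 0 higher members was called.

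The promoter sequences of the 4 members that fell and of SLC3A2 are shown because these members moved in opposite directions. They come from RefSeq on GRCh38.p14 and are printed 5′ to 3′ on the strand of the gene. Each begins 250 bases before the gene start nearest the canonical transcript. It ends just before that start, or before the first base that is exonic in another transcript of the gene. The sequences of SLC43A1 (172 bases), SLC7A8 (236) and SLC3A2 (217) therefore end short of the start. Distances below are counted from that start. Capitals mark CACGTG, the E-box that MYC family factors can bind.
SLC7A5 (chr16:87869508-87869757, minus strand): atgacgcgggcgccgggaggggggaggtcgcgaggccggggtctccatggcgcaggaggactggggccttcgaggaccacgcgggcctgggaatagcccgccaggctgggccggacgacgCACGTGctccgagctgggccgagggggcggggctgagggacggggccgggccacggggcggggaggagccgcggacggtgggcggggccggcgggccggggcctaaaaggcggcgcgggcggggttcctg
SLC43A1 (chr11:57515781-57515952, minus strand): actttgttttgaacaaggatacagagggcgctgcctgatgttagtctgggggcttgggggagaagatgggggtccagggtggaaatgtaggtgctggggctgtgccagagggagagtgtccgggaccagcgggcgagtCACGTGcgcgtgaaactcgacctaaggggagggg
SLC7A8 (chr14:23183675-23183910, minus strand): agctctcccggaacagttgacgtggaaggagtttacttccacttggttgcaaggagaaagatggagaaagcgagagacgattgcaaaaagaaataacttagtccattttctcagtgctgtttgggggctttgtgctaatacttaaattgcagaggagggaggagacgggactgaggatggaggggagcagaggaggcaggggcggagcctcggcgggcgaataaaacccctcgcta
SLC7A1 (chr13:29595689-29595938, minus strand): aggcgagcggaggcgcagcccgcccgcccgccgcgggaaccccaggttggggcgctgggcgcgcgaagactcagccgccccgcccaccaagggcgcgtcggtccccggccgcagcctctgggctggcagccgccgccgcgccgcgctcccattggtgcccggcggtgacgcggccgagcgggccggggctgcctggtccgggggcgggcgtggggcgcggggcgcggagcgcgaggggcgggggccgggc
SLC3A2 (chr11:62880646-62880862, plus strand): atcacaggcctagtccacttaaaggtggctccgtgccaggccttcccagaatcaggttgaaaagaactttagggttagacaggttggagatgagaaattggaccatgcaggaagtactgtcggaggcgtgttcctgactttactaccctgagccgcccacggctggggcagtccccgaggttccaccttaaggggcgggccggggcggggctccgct
The E-box letters CACGTG, which read the same on both strands, began 130 bases before the start of SLC7A5 and 112 bases before that of SLC43A1. They were in the 250 bases before the start of 2 of the 10 members and in 6.32% of 34943 promoters. GATAA, the core letters that GATA factors bind, was searched on both strands and found in 1 member, SLC1A5, and in 20.5% of promoters. TGATGNAA, the amino acid response element, was found on neither strand in these 250 bases of any of the 10 members and in 3.15% of promoters. Bases after the start or further upstream were not searched, so the genes may hold such letters elsewhere. For SLC38A1 the RefSeq start used lay 1056 bases from that of the canonical transcript. A match gives only the letters and is no measure of binding.

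**Figure D1:**
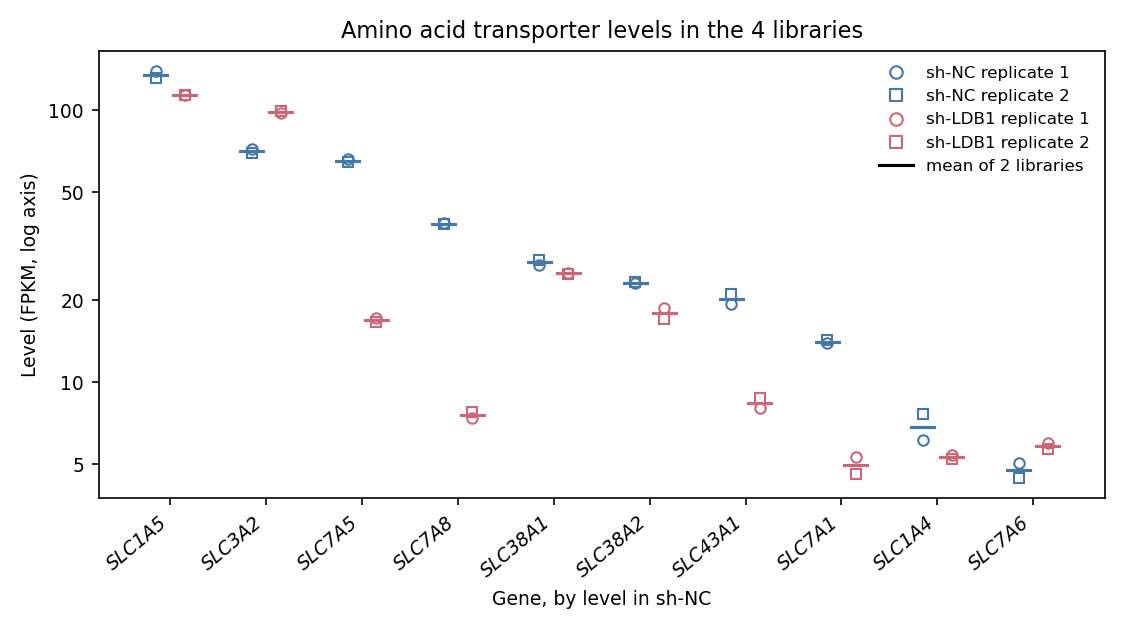
Levels of the 10 transporters in FPKM on a log axis, by gene in the order of the sh-NC mean. Circles and squares are replicates 1 and 2, blue is sh-NC, red is sh-LDB1 and short lines are means of 2 libraries. SLC7A5, SLC7A8, SLC43A1 and SLC7A1 drop well clear of their sh-NC libraries, while SLC3A2 sits higher in sh-LDB1.

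The heavy chain SLC3A2 (chr11:62856004-62888880, plus strand, with 9 exons in the canonical transcript on GRCh38) was the second most abundant member in both groups. Its level was 72.1 and 69.5 FPKM in the control libraries and 97.7 and 99.7 FPKM in the knockdown libraries. Both knockdown libraries lay above both controls. The level was 1.39 times the control, with a log2 fold change of 0.47 ± 0.0417 (SE) and an adjusted p = 0.000844, which did not reach the 2-fold threshold.

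SLC7A5 (chr16:87830023-87869507, minus strand, 10 exons), also called LAT1, exchanges leucine and other large neutral amino acids for glutamine. It was at 66.2 and 64.6 FPKM in the control libraries and at 17.2 and 16.7 FPKM in the knockdown libraries. The replicates lay close together, and the knockdown libraries held about the same low level. The mean fell from 65.4 ± 1.09 to 17.0 ± 0.338 FPKM (SD, n = 2), down to 25.9% of the control, with a log2 fold change of -1.89 ± 0.0424 (SE) and an adjusted p = 7.03e-05. The pseudogene SLC7A5P1 matches 538 bases of the 4556-base SLC7A5 transcript at 96.7% identity, so reads from this stretch could be split between them. SLC7A5P1 was at 8.17 and 6.19 FPKM in the control libraries and at 3.95 and 3.94 FPKM in the knockdown libraries, which was 71, 49, 34 and 32 reads, where SLC7A5 had between 1201 and 5082. Further copies that match between 536 and 615 bases of the transcript, SLC7A5P2 among them, were not analysed here for their levels.

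SLC7A8 (chr14:23125295-23183674, minus strand, 11 exons), or LAT2, is the light chain for a wider range of neutral amino acids. It gave 38.5 and 38.1 FPKM in the control libraries and 7.38 and 7.80 FPKM in the knockdown libraries. No other member had a larger fold change. The mean went from 38.3 ± 0.285 to 7.59 ± 0.299 FPKM (SD, n = 2), a level 5.05 times lower, and the log2 fold change was -2.20 ± 0.0490 (SE) with an adjusted p = 7.03e-05.

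SLC7A6 (chr16:68264516-68301823, plus strand, 11 exons), or y+LAT2, exports arginine in exchange for glutamine and sodium. It was the member with the lowest level in sh-NC, at 5.04 and 4.45 FPKM, and gave 5.997 and 5.67 FPKM in the knockdown libraries. The knockdown libraries were above both controls by a small margin. The log2 fold change was 0.25 ± 0.0792 (SE) with an adjusted p = 0.0443, and this p ranged from 0.00787 to 0.195 over the 12 alternatives. SLC7A6 shares 44.4% of its exonic bases with SLC7A6OS on the opposite strand. SLC7A6OS was at 2.51, 2.57, 2.34 and 2.49 FPKM in the same order of libraries. A further gene on the opposite strand covers 11.1% of the exonic bases of SLC7A6. That gene was at 0.846, 0.878, 1.08 and 1.83 FPKM in this order, higher in both knockdown libraries than in both controls. Without strand, reads of these genes cannot be told apart from those of SLC7A6 where they overlap.

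SLC7A5 and SLC7A8 were also compared with their heavy chain within each library. The ratio of SLC7A5 to SLC3A2 was 0.918 and 0.930 in the control libraries and 0.176 and 0.168 in the knockdown libraries, which was 5.37 times lower. For SLC7A8 the ratio went from 0.534 and 0.548 to 0.0755 and 0.0783, which was 7.04 times lower. The SLC7A6 ratio went from 0.0699 and 0.0640 to 0.0614 and 0.0569, which was 1.13 times lower. Thus the transcripts of these light chains together went from 1.52 and 1.54 times the SLC3A2 level to 0.313 and 0.303 times. With 2 libraries against 2, the two-sided exact permutation test gave p = 0.333 for each of the ratios, which is the smallest p it allows. Depth and any common scaling of a library cancel in these ratios.

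**Figure D2:**
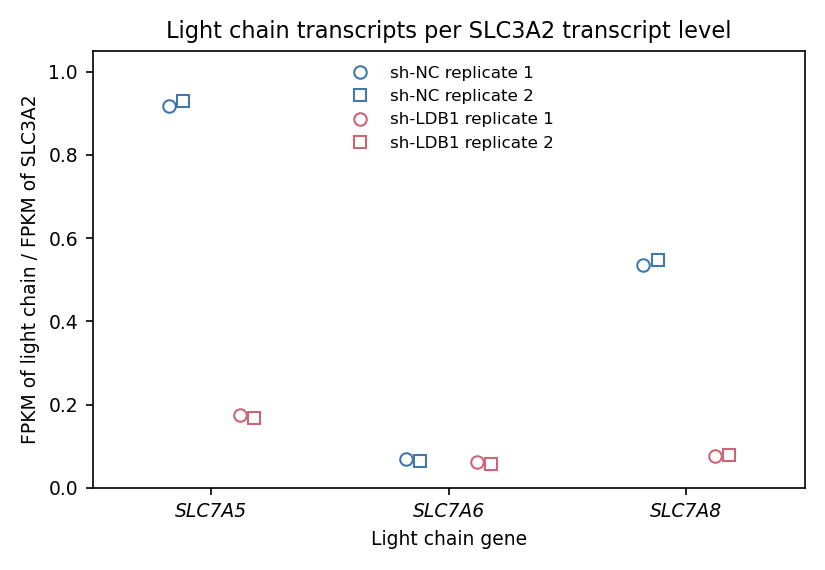
FPKM of SLC7A5, SLC7A6 and SLC7A8 divided by the FPKM of SLC3A2 in the same library. Circles and squares are replicates 1 and 2, blue is sh-NC and red is sh-LDB1. SLC7A5 and SLC7A8 start at 0.918 and 0.534 or above and end below 0.2, while SLC7A6 stays under 0.07 throughout.

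The light chain transcripts also differed in their make-up. Further partners of SLC3A2 with values were SLC7A7 (y+LAT1), a cationic amino acid exporter, and SLC7A11 (xCT), the cystine and glutamate exchanger. Of the summed FPKM of these 5 light chains, SLC7A5 held 57.9% and 57.4% in the control libraries and 49.8% and 48.9% in the knockdown libraries. SLC7A8 went from 33.7% and 33.8% to 21.4% and 22.8%, whereas SLC7A6 went from 4.41% and 3.95% to 17.4% and 16.6%. The share of SLC7A7 went from 0.327% and 0.457% to 5.25% and 4.44%. The levels of SLC7A7 were 0.373 and 0.515 FPKM in the control libraries and 1.81 and 1.52 FPKM in the knockdown libraries, so it passed the filter of 1 FPKM on the mean only through sh-LDB1, and it was not called. SLC7A5 thus held the largest share in all 4 libraries. The gain in share of SLC7A6 came with a level only 1.23 times the control, since the total of the 5 was lower.

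**Figure D3:**
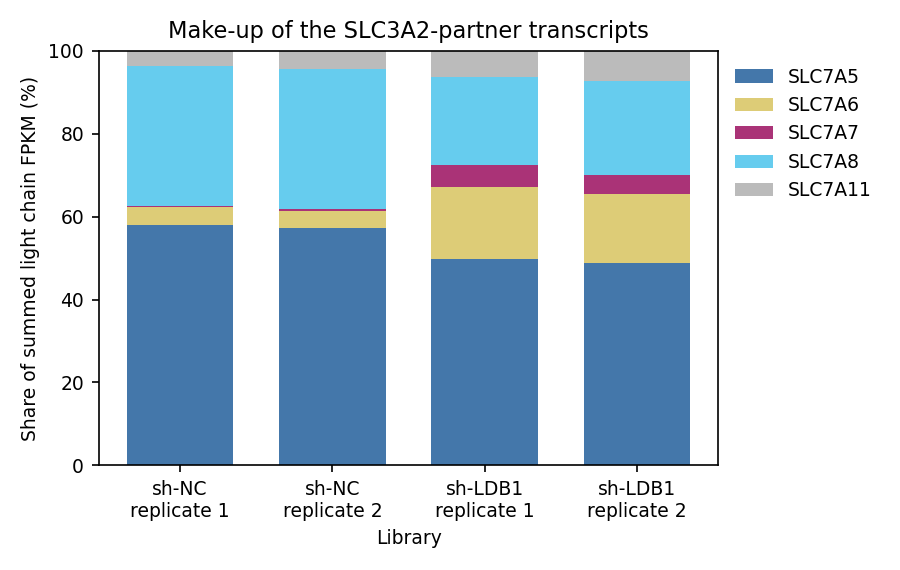
Share of each of 5 light chain genes, in percent of their summed FPKM, in each of the 4 libraries. SLC7A5 and SLC7A8 together take over 90% of each sh-NC bar and less of each sh-LDB1 bar, where SLC7A6 reaches 17.4% and 16.6%.

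SLC43A1 (chr11:57484534-57515780, minus strand, 15 exons), or LAT3, moves branched-chain amino acids by facilitated diffusion and needs no heavy chain. Its level was 19.4 and 21.1 FPKM in the control libraries and 8.04 and 8.79 FPKM in the knockdown libraries. The groups were far apart relative to the replicates. It kept 41.5% of the control level, with a log2 fold change of -1.18 ± 0.0704 (SE) and an adjusted p = 0.000297.

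SLC7A1 (chr13:29509414-29595688, minus strand, 13 exons), or CAT1, takes up arginine, lysine and ornithine without sodium. It was at 13.9 and 14.3 FPKM in the control libraries and at 5.33 and 4.61 FPKM in the knockdown libraries. It was the lowest member by its mean in sh-LDB1, although its libraries overlapped there with those of SLC1A4. The level left was 35.2% of the control, with a log2 fold change of -1.34 ± 0.0774 (SE) and an adjusted p = 0.00027.

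The sodium-dependent carriers of small neutral amino acids moved less. SLC1A5 (chr19:46774883-46788594, minus strand, 8 exons), or ASCT2, a main entry route of glutamine, was the most abundant member, at 139.6 and 131.4 FPKM in the control libraries and 113.7 and 114.0 FPKM in the knockdown libraries. Its log2 fold change was -0.25 ± 0.0468 (SE) with an adjusted p = 0.00909, and it was -0.08 with an adjusted p = 0.227 when libraries were rescaled to the same total. An antisense gene covers 23.4% of its exonic bases and was listed at no more than 0.269 FPKM. SLC1A4 (chr2:64988477-65023865, plus strand, 8 exons), or ASCT1, which exchanges alanine, serine and cysteine, was at 6.13 and 7.62 FPKM in the control libraries and 5.41 and 5.22 FPKM in the knockdown libraries. Its controls were further apart than those of any other member in relation to their mean, and the log2 fold change of -0.31 ± 0.108 (SE) had an adjusted p = 0.0577.

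SLC38A2 (chr12:46358188-46372773, minus strand, 16 exons), or SNAT2, is a system A carrier that cells raise when amino acids are short. It was at 23.2 and 23.4 FPKM in the control libraries and at 18.8 and 17.1 FPKM in the knockdown libraries, with a log2 fold change of -0.36 ± 0.0599 (SE) and an adjusted p = 0.00594. Its neighbour SLC38A1 (chr12:46183063-46270017, minus strand, 17 exons), or SNAT1, was at 27.0 and 28.3 FPKM in the control libraries and 25.2 and 25.1 FPKM in the knockdown libraries. This was the smallest log2 fold change of the members, -0.13 ± 0.0458 (SE), with an adjusted p = 0.0608, and its sign turned, to 0.038, when libraries were rescaled to the same total. Thus neither of the system A carriers nor either of the ASC carriers reached a 2-fold change.

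**Figure D4:**
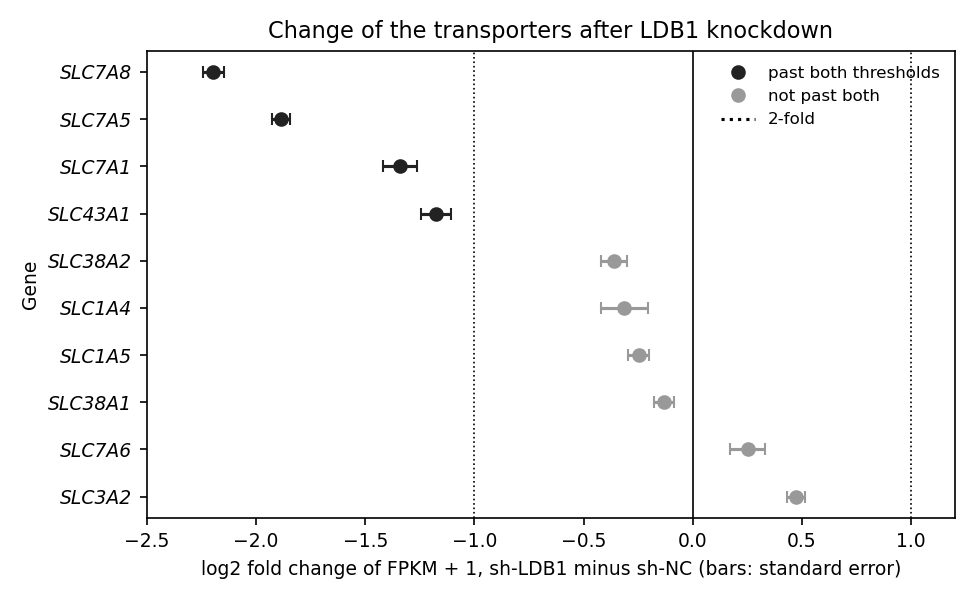
Log2 fold change of FPKM + 1 in sh-LDB1 against sh-NC for the 10 transporters, with the standard error as bars and dotted lines at 2-fold. The 4 black points, from -2.20 for SLC7A8 to -1.18 for SLC43A1, lie past the dotted line, and SLC3A2 and SLC7A6 are the points above 0.

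The order of the members changed with these shifts. In sh-NC it ran SLC1A5, SLC3A2, SLC7A5, SLC7A8, SLC38A1, SLC38A2, SLC43A1, SLC7A1, SLC1A4 and SLC7A6, from 135.5 ± 5.75 to 4.75 ± 0.418 FPKM (SD, n = 2), and no neighbours in this order overlapped in their libraries. In sh-LDB1 it ran SLC1A5, SLC3A2, SLC38A1, SLC38A2, SLC7A5, SLC43A1, SLC7A8, SLC7A6, SLC1A4 and SLC7A1. There SLC38A2 and SLC7A5 overlapped, as did SLC1A4 and SLC7A1. SLC7A8 went from the fourth place to the seventh, and SLC7A5 from the third to the fifth.

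The summed level of the 10 members was 406.9 ± 5.80 FPKM in the control libraries and 304.7 ± 0.0398 FPKM in the knockdown libraries (SD, n = 2), or 74.9% of the control. The 4 members called lower, chosen here by their own change, went from 138.1 to 37.9 FPKM. The other 6 together were at 268.8 ± 5.86 and 266.8 ± 0.0255 FPKM (SD, n = 2), or 99.2% of the control, with SLC3A2 higher and SLC1A5 lower within this sum. With libraries rescaled to the same total, the 10 members were at 84.4% of the control, the 4 at 31.0% and the other 6 at 112%. SLC1A5 and SLC3A2 together made up 51.5% and 49.9% of the members' sum in sh-NC and 69.4% and 70.1% in the knockdown libraries.

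Next, the other genes of amino acid transport, sensing and use were counted in the same comparison. Of 31 other cell-surface transporters, 21 had a value and 7 passed the filter on low values, of which 1 was called higher and 2 lower. The median log2 fold change of the 7 was -0.71, lower than that of the members. SLC43A2 (LAT4), a relative of SLC43A1 that also moves branched-chain amino acids, was at 1.75 and 1.85 FPKM in the control libraries and 5.68 and 5.71 FPKM in the knockdown libraries, a log2 fold change of 1.26 ± 0.0712 (SE, adjusted p = 0.000259). The pair from the LAT3 and LAT4 family thus moved in opposite directions, from a far lower control level in SLC43A2. SLC38A5 (SNAT5), a glutamine carrier, went from 42.6 and 42.8 FPKM to 19.1 and 21.3 FPKM. SLC6A19, a sodium-dependent carrier of neutral amino acids, went from 12.3 and 10.7 FPKM to 5.21 and 5.04 FPKM. Their log2 fold changes were -1.05 and -1.02, close to the threshold, and with libraries rescaled to the same total none of the list was called lower.

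Of 23 lysosomal and mitochondrial transporters, 21 had a value and 18 were tested, and 3 were called higher and 0 lower. At the adjusted p alone 9 were higher and 4 lower, and the 9 include SLC29A3, which is a nucleoside transporter. The mean of SLC29A3 was 0.987 FPKM in the control libraries and 1.87 FPKM in the knockdown libraries, so it passed the filter only through the latter. CTNS, which exports cystine from lysosomes, went from 4.55 and 4.93 FPKM in the control libraries to 24.2 and 23.9 FPKM in the knockdown libraries, with a log2 fold change of 2.13 ± 0.0570 (SE, adjusted p = 8.27e-05). SFXN3, a mitochondrial sideroflexin, went from 0.467 and 0.644 FPKM to 4.003 and 3.64 FPKM, so it passed the filter on low values only through the knockdown libraries, and the count of 3 includes it. The third was SLC38A7, a lysosomal glutamine carrier, at 3.08 and 3.29 FPKM in the control libraries and 7.56 and 7.75 FPKM in the knockdown libraries. The median of the tested genes was 0.08.

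Among 40 genes of amino acid sensing in the mTORC1 and GCN2 pathways, 36 were tested, with 4 called higher, 2 lower and a median log2 fold change of 0.25. At the adjusted p alone 18 were higher and 10 lower, 8 were called higher with libraries rescaled to the same total, and 2 without sh-NC replicate 1. NPRL2, a subunit of the mTORC1 inhibitor GATOR1, went from 6.74 and 6.71 FPKM to 17.3 and 18.4 FPKM, a log2 fold change of 1.29 ± 0.0552 (SE). RRAGA, a Rag GTPase, and BMT2 (SAMTOR), which senses S-adenosylmethionine, were also called higher. WDR59, a subunit of GATOR2, went from 9.95 and 9.82 FPKM to 3.72 and 3.23 FPKM. The subunits of both complexes moved in both directions, which was looked at after the values were seen. NPRL3 of GATOR1 had a log2 fold change of -0.61, and in GATOR2 it was 0.94 for SEC13, 0.55 for WDR24, -0.99 for MIOS and -0.94 for SEH1L. Each had an adjusted p under 0.05 and none was past the 2-fold threshold, which was set on FPKM + 1. In FPKM alone, MIOS was at 43.3% and SEH1L at 49.7% of the control. LARS, the leucyl-tRNA synthetase and leucine sensor, fell by 1.01 on the log2 scale.

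Of 32 enzymes of amino acid use, 27 were tested, and 7 were called lower and 0 higher. At the adjusted p alone 17 were lower and 6 higher, and the median log2 fold change was -0.54. The 6 include GPT, at 0.987 and 0.787 FPKM in the control libraries and 1.83 and 2.42 FPKM in the knockdown libraries. GPT thus passed the filter on low values only through the knockdown libraries. PSAT1, an enzyme of serine synthesis, went from 70.8 and 73.5 FPKM to 17.5 and 15.7 FPKM, a log2 fold change of -2.06 ± 0.0638 (SE, adjusted p = 9.57e-05). OAT, which converts ornithine in mitochondria, went from 129.9 and 140.4 FPKM to 38.4 and 41.5 FPKM. The others were PHGDH, which precedes PSAT1 in serine synthesis, ODC1, which makes putrescine from ornithine, CBS of transsulfuration, SHMT1 of serine and glycine interconversion and GLUD1, glutamate dehydrogenase. CBS was uneven, at 13.7 and 15.3 FPKM in the control libraries and 7.76 and 3.84 FPKM in the knockdown libraries (SE 0.296, adjusted p = 0.0189). GLUD1 was close to the threshold, with a log2 fold change of -1.01. These lists were chosen with earlier results known, so their counts are descriptions beside the background shares given above.

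**Figure D5:**
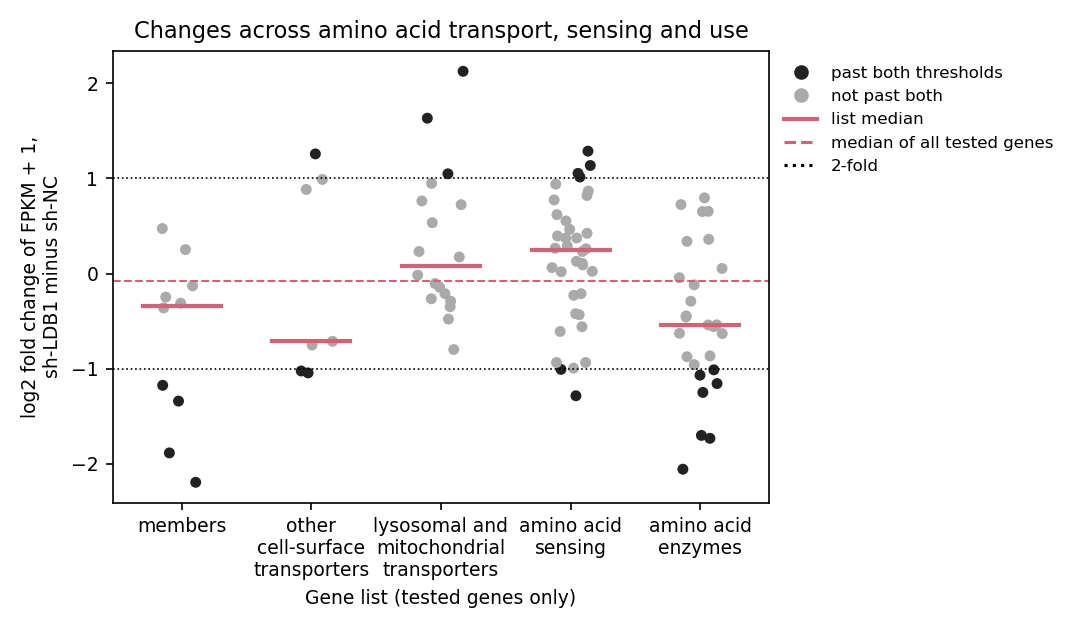
Log2 fold change of FPKM + 1 for the tested genes of the members and of 4 related lists, 1 point a gene, black where past both thresholds. Red lines are list medians, from -0.71 for the other cell-surface transporters to 0.25 for the sensing genes, and the dashed line is the median of all tested genes, -0.08.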

How the data were processed

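RNA-seq libraries were made from total RNA with an Illumina TruSeq kit. Per the submitters' processing notes the tools and builds included HISAT2 2.0.5 and hg38. The authors deposited FPKM per gene and library. The annotation, the counter and the use of strand were not given in the sources used here. Groups came from the sample labels. Genes whose mean over the libraries reached 1 FPKM were kept (13300 of 28412), and log2(FPKM + 1) was fitted with limma 3.58.1 in R 4.3.3 (eBayes with a trend, 2 libraries a group, no block). This scale understates changes of low genes. RRAGC, at 36.5% of its control FPKM, ASNS, at 28.6%, and SLC15A4, at 2.15 times, were thus not called. For 97.4% of genes, a length fitted around the GENCODE one gave whole reads within 0.01, and 24615 fitted lengths were within 10% of the annotated one. Reads therefore rest on fitted lengths (for SLC3A2, 5178 against 6392 bases). The FPKM had been scaled by the equivalent of 14746656 to 16182674 reads, and each member had 455 to 8105 reads per library. The members and lists were chosen with earlier results of these data known. Named from each related list were the 2 called genes with the largest rise and fall, and other called genes were named after their values were seen. A called gene of the sensing list is not reported here. The fit was run on simulated data with changes larger than 2-fold in genes above the filter on low values. It therefore does not test calls near either threshold. Promoters were read from RefSeq, and copies were sought with BLAST+ 2.17.0.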

Additional observations from a re-analysis of the deposited data

How the results depend on the processing

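The 4 members called lower and LDB1 kept their calls and direction under other pseudocounts, filters, scalings and variance priors, without each library and with voom on recovered reads, the last chosen after seeing the data, as was the rescaling of the members' summed level. A test against a 2-fold change (limma treat) called 2 members lower, and without a fold threshold 2 members were higher. SLC38A1 turned to 0.038 on the log2 scale with libraries rescaled to the same total. Counts near the threshold moved. Other cell-surface transporters called higher were 3 at pseudocounts of 0.1 and 0.01, rescaled, with no fold threshold and with voom, 0 with a filter of 5 FPKM and under treat, and 1 to 2 without 1 library (2 without sh-NC replicate 2). Those called lower were 0 rescaled and under treat, 4 with no fold threshold and 1 to 2 without 1 library (1 without sh-NC replicate 1 and 1 without sh-LDB1 replicate 1). Lysosomal and mitochondrial transporters called higher were 5 at both pseudocounts and with voom, 6 rescaled and 9 with no fold threshold, where 4 were lower. Sensing genes called higher were 8 rescaled, 18 with no fold threshold, 1 under treat and 2 to 4 without 1 library (2 without sh-NC replicate 1). Those called lower were 5 at both pseudocounts and with voom, 10 with no fold threshold, 0 under treat and 1 to 3 without 1 library (1 without sh-NC replicate 2). Enzymes called higher were 1 at both pseudocounts and with voom, 2 rescaled and 6 with no fold threshold, and those called lower were 17 with no fold threshold and 3 under treat. Over all genes, 710 were called higher with a filter of 5 FPKM, 2026 rescaled, 3983 with no fold threshold and 568 under treat, and 4978 were called lower with no fold threshold and 581 under treat. Voom called 1712 higher and 1880 lower.

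No shared effect of the replicate number was seen, since the differences between replicates 1 and 2 correlated at 0.0196 between the groups. This correlation cannot tell whether libraries of the same number were made together. With the replicate number as a block, 4 members were called lower and 0 higher, and over all genes 1274 were called higher and 1386 lower.

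With 2 libraries a group, the spread rests on few samples. Each member had between 455 and 8105 reads in a library.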
